A study of Mus musculus with 8 samples.

Results

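CpG islands are short stretches rich in the dinucleotide CpG, the main target of DNA methylation in mammals. Most lie at gene starts and stay unmethylated, whereas CpG-rich sequence elsewhere includes coding exons, orphan islands without a known promoter and young repeats, which are usually kept methylated. The tiles described here were CpG-dense sequence away from gene starts, and they were chosen from position and coverage, not from methylation. A tile was a 1 kb window of an autosome that held at least 40 CpGs covered by 5 or more reads throughout the files and lay more than 2 kb from the start of every transcript in GENCODE M21 (mouse build GRCm38). This rule gave 2100 tiles of 1950708 autosomal tiles with 3 or more such CpGs, of which 801 lay mostly in exons, 410 in introns and 889 between genes. For comparison, 16241 tiles were as CpG-dense but lay within 2 kb of a start.

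Whole-genome bisulfite sequencing had been performed on 8 samples from C57BL/6J mice aged 6 to 8 weeks, with 2 samples in each of 4 groups: B and T cells of females, and B and T cells of males. The B cells were CD43- cells of the spleen (resting B cells, taken by the absence of CD43). The T cells were naive CD4+ cells of the spleen sorted as CD62Lhi, CD44lo and CD25-. Animals were pooled, and the labels give no treatment and no allele beyond the strain. Each group had 1 file of methylation calls, so no value had an error from replicates within a group. The 4 files were the units of the permutation tests. The quasi-binomial tests of single tiles used read counts with a spread shared over windows, so their p-values depend on the number of reads. The files came from bisulfite conversion without prior oxidation, which does not separate 5-methylcytosine from 5-hydroxymethylcytosine, and level below means the percent of reads with either. Summed over CpGs, the 4 files held from 278275973 to 339923001 autosomal read counts, or 14.6 to 17.7 per CpG. A read over several CpGs is counted at each of them, and the reads of a tile below are such sums. The tests of single tiles make no allowance for this beyond the shared spread. The cell type labels were checked at the starts of marker genes. The 5 B cell markers given here, such as Cd79a, were each lower in B cells in both sexes, with 8.19% to 32.8% in female B cells against 35.9% to 93.6% in female T cells. All 6 T cell markers, such as Cd3e, were higher in B cells, with 70.4% to 95.5% against 3.45% to 29.4%.

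The densest 200 bases of 6 tiles are shown, with each CpG in capitals, to show what such sequence looks like in 4 coding tiles called between B and T cells and in 2 tiles with almost no methylated reads. All are given 5′ to 3′ on the plus strand of GRCm38.
Kcnn4, coding exon, chr7:24377394-24377593: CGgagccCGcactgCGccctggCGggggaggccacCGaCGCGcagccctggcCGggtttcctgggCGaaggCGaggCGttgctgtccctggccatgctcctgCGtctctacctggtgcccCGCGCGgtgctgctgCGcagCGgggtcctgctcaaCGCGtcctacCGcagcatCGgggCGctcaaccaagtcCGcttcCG
Ccr7, coding exon, chr11:99145470-99145669: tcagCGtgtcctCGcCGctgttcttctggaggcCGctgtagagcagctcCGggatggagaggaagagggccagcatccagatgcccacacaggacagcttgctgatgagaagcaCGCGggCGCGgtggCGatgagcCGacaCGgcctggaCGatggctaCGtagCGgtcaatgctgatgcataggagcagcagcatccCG
Tmem151b, coding exon, chr17:45545747-45545946: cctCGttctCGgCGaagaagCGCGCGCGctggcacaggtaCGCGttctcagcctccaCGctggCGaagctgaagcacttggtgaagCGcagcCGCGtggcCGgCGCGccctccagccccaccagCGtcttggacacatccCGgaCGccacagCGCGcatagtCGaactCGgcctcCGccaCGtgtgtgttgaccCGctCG
Rai1, coding exon, chr11:60189618-60189817: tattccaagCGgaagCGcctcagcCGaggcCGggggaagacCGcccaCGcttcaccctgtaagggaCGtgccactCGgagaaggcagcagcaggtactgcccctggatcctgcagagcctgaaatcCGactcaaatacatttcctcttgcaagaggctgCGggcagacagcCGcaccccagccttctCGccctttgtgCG
Between genes nearest to Gm22614, chr3:96500265-96500464: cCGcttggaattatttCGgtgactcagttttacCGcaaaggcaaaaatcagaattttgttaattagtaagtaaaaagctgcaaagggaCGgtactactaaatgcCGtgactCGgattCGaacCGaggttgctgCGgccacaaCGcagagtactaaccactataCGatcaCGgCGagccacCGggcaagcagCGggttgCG
Hist1h2be, coding exon, chr13:23585605-23585804: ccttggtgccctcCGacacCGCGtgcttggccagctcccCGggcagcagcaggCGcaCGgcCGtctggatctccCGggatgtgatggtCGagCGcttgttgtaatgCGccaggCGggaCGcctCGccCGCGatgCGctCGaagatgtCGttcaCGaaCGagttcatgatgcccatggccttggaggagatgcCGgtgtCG
The Tmem151b stretch was the densest, with 28 CpGs, and was read in B cells at 3.70% (females) and 2.57% (males), whereas T cells had 52.7% and 51.0%. In the pairs of values that follow, females come before males. The Kcnn4 stretch, with 24 CpGs, went the other way, at 84.2% and 80.7% in B cells and 28.1% and 27.2% in T cells. In Rai1 the 13 CpGs shown read 41.1% and 32.4% in B cells and 94.2% and 96.7% in T cells. The 16 CpGs shown of Ccr7 read 98.1%, 92.4%, 95.9% and 95.7% (B and T cells of females, then of males), so the difference of that tile lay outside its densest part. No methylated read was seen at any of the 16 CpGs near Gm22614 or the 23 of Hist1h2be in any file. In the shallowest file this allows a level of up to 1.37% and 0.885% (3 counts of 219 and of 339). Such limits cover counting error only and take the counts at different CpGs as independent.

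The tiles were split into methylated and unmethylated sequence, with little between. Of 2100 tiles, 762 had a mean level under 10% over the 4 files and 809 had 90% or more. In all 4 files, 934 tiles (44.5%) were under 20%, here called low, and 863 (41.1%) were over 80%, here called high. The other 303 (14.4%) were in neither class in every file. Where 4 levels are given in a row below, B and then T cells of females come first, followed by B and then T cells of males. The mean over all tiles was 48.2%, 48.3%, 47.7% and 48.1%. Few tiles lay near that mean, with 33 in the bin from 40% to 50%. The 4 files thus gave nearly the same mean, and 1975 tiles fell in the same class in every file. The precision behind these values was set by depth, with a median of 47 CpGs and 835 reads per tile and file. The widest 95% Wilson interval of a tile over its 4 files had a median half-width of 1.85 points, which covers counting error only.

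**Figure D1:**
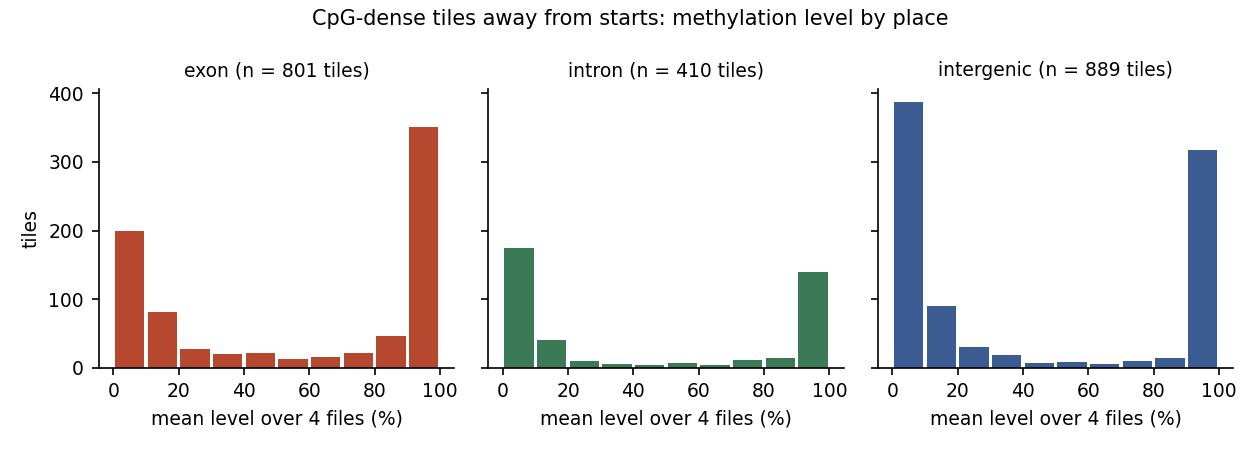
Number of tiles (y axis) by mean methylation level over the 4 files (x axis, in bins of 10%) for tiles in exons, introns and between genes. In exons 351 of 801 tiles lay at 90% or above, and between genes the largest bin was the lowest, with 387 of 889 tiles under 10%.

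CpG-dense tiles near starts had another distribution. Their mean level was 7.78%, 7.61%, 7.34% and 7.62%, and 90.9% of them were low while 2.56% were high. Tiles away from starts were higher by 40.5 points ± 0.16 (SD over 4 files) and differed by −38.0 points ± 0.29 from all autosomal tiles, whose mean was 85.9% to 86.2%. Both differences had the same sign in 4 of 4 files, with p = 0.125 by an exact sign-flip permutation test, the smallest value 4 files allow. At the edges of the rule, 566 tiles with 40 to 42 CpGs had a mean of 61.6% against 72.1% for 840 tiles with 37 to 39. The 181 tiles within 500 bp beyond the 2 kb limit had a mean of 38.3%, and 230 equally dense tiles within 500 bp inside it had 35.8%.

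Among the tiles measured, place in the gene went with the level. Exon tiles were the most methylated, at 57.1%, 57.3%, 56.4% and 56.96%. Intron tiles had means of 44.1%, 44.1%, 43.6% and 43.9%, and intergenic tiles had 42.1%, 42.1%, 41.7% and 42.1%. No file of one place overlapped with a file of another. Exon tiles exceeded intron tiles by 13.02 points ± 0.16 (SD over 4 files) and intergenic tiles by 14.96 points ± 0.19, while introns exceeded intergenic tiles by 1.94 points ± 0.11. These SDs cover the files and not the choice of tiles. Exon, intron and intergenic means were 74.3%, 72.3% and 65.8% when 30 CpGs sufficed, and 50.6%, 22.2% and 14.5% when each CpG needed 10 reads. Each order held in 4 of 4 files (p = 0.125, exact sign-flip permutation test, two-sided, the smallest possible). By class, 47.3% of exon tiles were high and 33.2% low, against 37.3% high and 51.7% low in introns and 37.2% high and 51.3% low between genes.

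**Figure D2:**
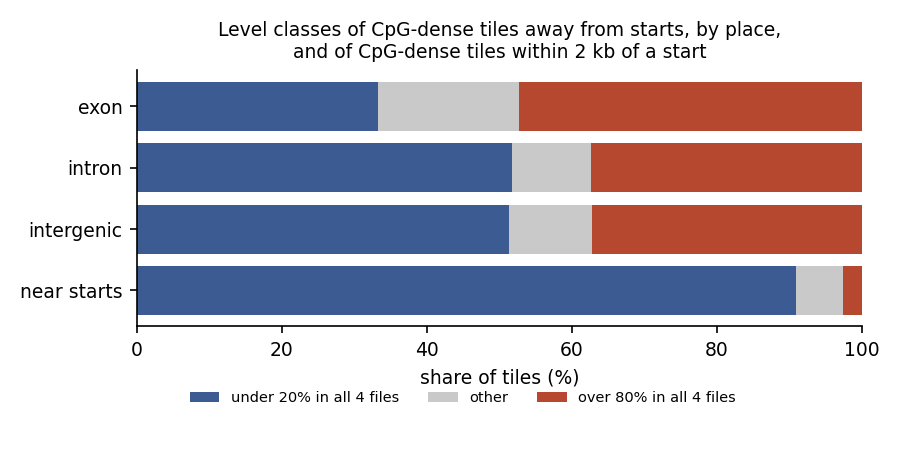
Share of tiles (x axis, percent) under 20% in all 4 files, over 80% in all 4 files or in neither class, for the 3 places away from starts and for CpG-dense tiles within 2 kb of a start. The low share is 33.2% in exons, 51.7% in introns, 51.3% between genes and 90.9% near starts.

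Among exon tiles the kind of exon divided the levels. The 705 tiles mostly of coding sequence had means of 61.5%, 61.6%, 60.8% and 61.2%, and 365 of them were high. The 46 tiles mostly of untranslated exon had lower means, of 30.6%, 32.02%, 30.2% and 31.9%, and 28 of them were low. The 30 tiles in exons of genes without a coding sequence were the lowest, at 9.85%, 12.1%, 9.96% and 11.2%, with 26 low and 0 high. Along the gene, 518 exon tiles lay near the 3′ end, at a relative position of 0.75 or more in the gene body, with a mean of 59.9%.

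Repeat content separated the methylated tiles of the 3 places. Soft-masked bases are those marked as repeats or low complexity in the reference. Not one of the 408 tiles that were at least 50% soft-masked was low, and 396 of them were high. This group held 1 exon tile, 100 intron tiles and 307 intergenic tiles. In the 331 high intergenic tiles the median soft-masked share was 97.9%, and 304 of them shared 10% or more of their 31-base words with another such tile away from starts. High exon tiles differed in this, with a median soft-masked share of 4.2% and 0 of 379 sharing words to that extent. Reads per CpG were lower in high intergenic tiles (median 13.3) than in high exon tiles (median 18.1), and how far shared sequence moved their levels was not tested.

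With the tiles that were at least 50% soft-masked left out, a choice made after seeing the data, the places stood further apart. The mean then was 56.97% in exons, 28.1% in introns and 14.6% between genes. Of 302 intergenic tiles under 10% soft-masked, 251 (83.1%) were low and 5 were high, whereas of 633 exon tiles with as few masked bases 188 (29.7%) were low and 322 high. The order also held at matched CpG counts. Among tiles of 40 to 49 CpGs and under 50% soft-masked, exon tiles had a mean of 70.96%, intron tiles 37.2% and intergenic tiles 18.7%. At 70 or more CpGs the values were 24.9%, 7.61% and 6.39%.

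Tiles with more CpGs had lower levels, and tiles farther from a start had higher ones. Over all places the mean was 61.8% for 790 tiles of 40 to 44 CpGs, 43.2% for 439 tiles of 50 to 59 and 17.0% for 130 tiles of 80 or more. It was 36.7% for 331 tiles from 2 to 3 kb of a start, 53.3% for 411 tiles from 10 to 20 kb and 76.6% for 150 tiles beyond 50 kb. These trends are across tiles of the same 4 files, and the tiles are not independent replicates. Part of the low tiles lay near starts of another annotation, since 318 tiles (15.1%) were within 2 kb of a RefSeq transcript start. Their mean was 19.96% and 236 of them were low, while the remaining 1782 tiles had a mean of 53.1% with 698 low and 828 high.

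**Figure D3:**
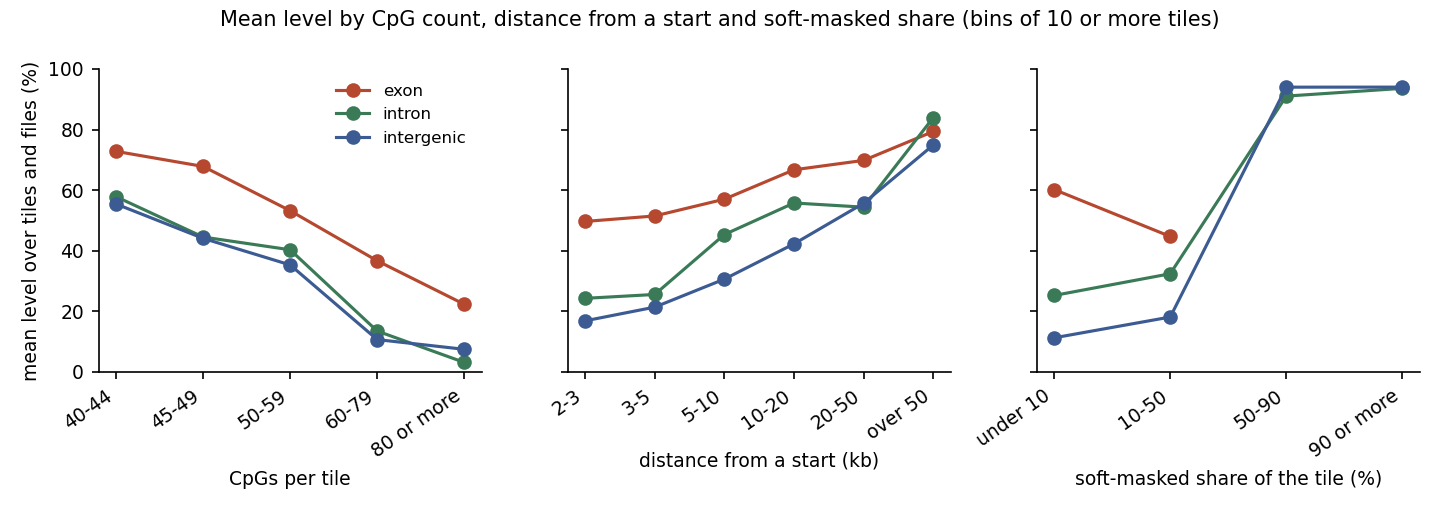
Mean level over tiles and files (y axis, percent) against CpGs per tile, distance from the nearest start and soft-masked share, for exon, intron and intergenic tiles in bins of at least 10 tiles. Levels are lower at higher CpG counts in all 3 places, from 72.8% to 22.3% in exons, and both introns and intergenic sequence exceed 90% once the soft-masked share reaches 50%.

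The lowest tiles held almost no methylated reads. In Hist1h2be, a histone H2B gene, the tile had 0.348%, 0.248%, 0% and 0%, where a count of 0 allows up to 0.287%. The tile in the last part of Prr7, whose product is a proline-rich membrane adaptor, had 0% (up to 0.224%), 0.267%, 0.291% and 0.329%. Zfp771, a zinc finger gene, had 0.261%, 0.118%, 0.470% and 0.273% over 108 CpGs. These 3 were the lowest of the exon tiles. Among introns, the lowest were in Kdm6b, a demethylase of histone H3 lysine 27, at 0% (up to 0.513%) to 0.242% over the files, in Maml3, a Notch coactivator, at 0% (up to 0.525%) to 0.197%, and in Gm15738, an antisense RNA gene. Between genes, the tile nearest to Gm22614 had 0.135% in female B cells and 0% in the other files, which allows up to 0.351%. The next lowest were nearest to Gm12974, at 0% (up to 0.279%) to 0.143%, and to Gm49250, at 0% (up to 0.352%) to 0.199%. The Kdm6b and Hist1h2be tiles each held a RefSeq transcript start, Gm15738 lay 497 bp and Gm12974 1145 bp from one, and the Gm22614 tile lay 7780 bp from one. The RefSeq starts counted left out tRNA genes, so these distances do not show whether a tile, such as that of Gm22614, holds such a gene.

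Of the 130 tiles with 80 or more CpGs, 99 were low and 11 high. By place, 59 of 87 such tiles were low in exons, 13 of 13 in introns and 27 of 30 between genes. The tiles with most CpGs in each place, listed next, were low with 2 exceptions. Dact3, which encodes an antagonist of Wnt signaling, had the most, 147 CpGs in its coding exon, and read 38.8%, 25.7%, 30.1% and 31.6%. Otud7a, a deubiquitinase gene, had 143 CpGs at 1.77% to 2.35%, and Zfp316 had 142 at 3.65% to 7.07%. In introns, 2 adjacent tiles of the RNA gene Lncppara held 136 and 108 CpGs at 0.536% to 2.22%, and Macrod1 held 118 at 0.460% to 0.641%. Between genes, the tile near Gm47481 held 142 CpGs at 0.568% to 1.52% and that near Otx1, a homeobox gene of head development, held 106 at 7.29% to 9.28%. Of these, the Gm47481 tile held a RefSeq start and the Macrod1 tile lay 183 bp from one. The tile near Rnf223 was the methylated one, with 107 CpGs at 97.1% to 98.6%. Of its 12-base words 92.6% were repeated within the tile, although only 2.1% of its bases were soft-masked. Among all 2100 tiles, 215 had 50% or more of such words repeated, and 207 of these were high.

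Adjacent tiles mostly shared a state. The 2100 tiles formed 1877 runs, of which 186 held 2 or more tiles, and in 160 of these every tile was in 1 class. The longest run was 10 kb of exon tiles of Plec, which encodes the cytolinker plectin, with 568 CpGs at 97.6%, 97.4%, 97.7% and 97.7%. A run of 5 kb in Spen, a transcriptional corepressor gene, had 82.2% and 80.6% in B cells and 87.8% and 88.2% in T cells. A run of 4 kb in the introns of Filip1 was methylated at 95.5% to 96.3%. Unmethylated runs of 4 kb lay at Dmrta2 (4.02% to 5.53%), near Cbx8, which encodes a Polycomb subunit (2.00% to 3.50%), and near Sox14 (4.67% to 5.72%).

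Low tiles lay between flanks of higher mean level, and the flanks of high tiles were somewhat lower than the tiles. Within 500 bp of the centre, CpGs of the low tiles read 5.19%, 5.57%, 5.01% and 5.43%. From 1 to 2 kb away they read 32.6%, 33.4%, 32.2% and 33.2%, and from 3 to 5 kb 37.4%, 37.8%, 37.1% and 37.7%. High tiles went from 94.8% to 94.98% at the centre to 89.7% to 89.97% at 1 to 2 kb and 78.8% to 79.1% at 3 to 5 kb. Tiles of the other class dipped to 42.7% to 45.4% between flanks of 68.9% to 69.8%. The central part of each curve restates how the class was made, and the flanks hold neighbouring tiles and gene starts too. With CpGs of all 2100 tiles and those within 2 kb of a start left out, a choice made after seeing the data, the flanks of low tiles read 46.3% to 47.6% at 1 to 2 kb and 63.5% to 63.9% at 3 to 5 kb. These means were mixtures, since 40.2% of such CpGs at 1 to 2 kb were under 20%, 34.2% were over 80% and 25.6% lay between. Around high tiles the same selection gave 90.1% to 90.4% and 89.0% to 89.1%, so their lower level at 3 to 5 kb was not seen away from starts.

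**Figure D4:**
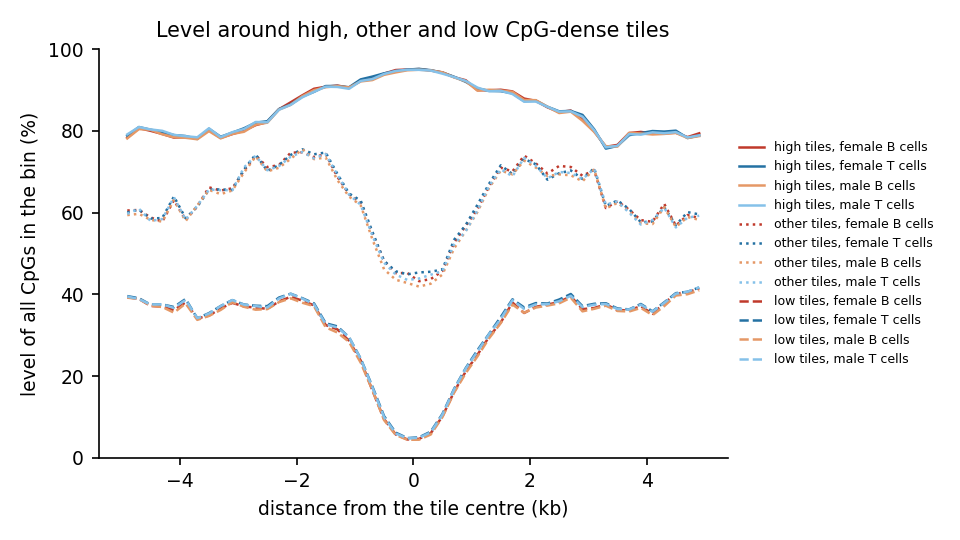
Level of all CpGs (y axis, percent) by distance from the tile centre (x axis, kb) around high, other and low tiles, with 1 line for each file. The 4 files overlie one another in each class, and low tiles return to about 33% at 1 to 2 kb.

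Gene families took different sides. Of 143 tiles in or nearest to 76 developmental transcription factor genes (homeobox, Sox, Fox and related families), 135 were low and 3 high, with a median of 6.61%, against a median of 31.02% over all 2100 tiles. Foxo6, a forkhead gene, had a coding tile of 132 CpGs at 3.29% to 4.89%, and 1 of the 6 tiles in or near Ebf3 read 5.06% to 6.91%. Of the 143 tiles 32 lay within 2 kb of a RefSeq start, these 2 among them. Foxc1 was less low, at 21.6%, 25.6%, 23.4% and 32.7%. Of 72 tiles in or nearest to 54 zinc finger genes, 50 were high and 19 low, with a median of 95.7%; Zfp467 read 96.9% to 97.8% and Zfp697 0.116% to 0.933%. Of 20 tiles in or nearest to 9 large CpG-rich coding genes, such as Plec, 18 were high, with a median of 97.3%. Of these 20, however, 11 lay in Plec, and the 9 tiles of the other 8 genes were 7 high and 2 low. The intergenic tile nearest to Macf1, at 2.55% to 4.31%, held a RefSeq start.

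The smaller lists gave single tiles rather than a pattern. Of 8 tiles in or nearest to 7 imprinted genes 5 were high, 1 was low and 2 were in neither class. The tile in Gnas, whose transcripts are imprinted, had 40.1%, 50.3%, 45.9% and 41.9%. The coding exon of Peg10 was methylated at 95.2% to 96.5%, and 1 of the 2 tiles nearest to Trappc9 at 3.78% to 5.56%. The tile nearest to Zim2 read 96.7% to 97.2%, but it lay between genes, 41370 bp from a start. It was 72.7% soft-masked and shared 15.4% of its 31-base words with 11 other tiles. Both collagen tiles, in Col6a2 and Col8a1, and the single protocadherin tile, in Pcdhb22, were high, at 93.1% to 95.9% and 93.4% to 95.1%. Of 13 tiles in or nearest to 7 lymphocyte genes, 4 of them for Bcl11b, 7 were low and 4 high. The tile nearest to Lef1, a transcription factor of T cells, had 0.0786% to 0.377% and lay 978 bp from a RefSeq start, and the last coding exon of Bcl11b had 96.0% to 97.1% over 83 CpGs.

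B and T cells differed little across these tiles. The mean B minus T difference was −0.11 points in females and −0.43 in males, with −0.26 and −0.51 in exons, −0.01 and −0.25 in introns and −0.02 and −0.43 between genes. Each gave p = 0.667 by an exact permutation of the 4 files, 2 against 2, where the smallest possible p is 0.333. In 1940 tiles (92.4%) the mean difference was under 5 points, and in 54 it was 10 points or more. Tile by tile, a quasi-binomial model fitted over all windows called a tile that passed an adjusted p of 0.05 with 20 points or more between the cell type means. It called 19 of 2100 tiles (0.905%), 6 higher and 13 lower in B cells, against 2.08% of all windows tested (1.16% higher and 0.913% lower). By place it called 10 exon tiles (1.25%), 6 in introns (1.46%) and 3 between genes (0.337%), and it called 27 of the 16241 CpG-dense tiles near starts (0.166%). A tile under 20% or over 80% in all files cannot differ by 20 points, so each of the 19 was among the 303 others, of which they made 6.27%. Without the size threshold, 252 tiles (12%) had an adjusted p under 0.05 against 5.34% of all windows, with a median of 835 reads per tile and file behind them against 109 over all tiles. CpG-dense tiles near starts, with a median of 1086 reads, had nearly the same share, 11.7%. With 1 residual degree of freedom the model takes 1 spread for every window, estimated from those with 5 or more expected reads of each kind. Its adjusted p-values are thus too small for tiles that vary more. Limma on log2 ratios called 8 of the 2100 tiles, those of Kcnn4, Gm45837, Ccr7, Tmem151b, Rai1, Bcl11b, 2810410L24Rik and Klf13, and not the other 11 described below. Without the size threshold, 9 of the 2100 tiles and 24185 of the 2018320 windows had an adjusted p under 0.05 by limma. With the prior for the spread taken from all windows, no window of the 2018320 passed, so the 0 calls of that fit (397 tiles had an unadjusted p under 0.05) say nothing about these tiles.

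Of the 6 tiles higher in B cells, 3 lay in coding exons. Kcnn4, a calcium-activated potassium channel of lymphocytes, stood at 76.3% and 78.1% in B cells but 19.7% and 19.9% in T cells (chr7:24377001-24378000). The difference was 56.7 points in females and 58.2 in males (adjusted p = 4.7e-153, quasi-binomial model), and 49 of 50 CpGs differed by 20 points or more in this direction. Gm45837, a protein-coding model that overlaps the phosphodiesterase gene Pde2a, had 69.2% and 66.9% in B cells and 14.96% and 11.9% in T cells (chr7:101504001-101505000). Ccr7, the chemokine receptor that guides lymphocytes into lymph nodes, had 91.3% and 91.9% in B cells and 58.7% and 50.04% in T cells (chr11:99145001-99146000, adjusted p = 5.6e-128). The groups of B and T files did not overlap in any of these, which their selection by a large difference makes likely in advance. Within the Ccr7 tile the 11 CpGs of the last 200 bases read 88.3% and 90.9% in B cells but 12.1% and 5.7% in T cells, while the 10 CpGs from base 401 to 600 read 95.02% or more in all files.

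The other 3 were smaller. An intronic tile of Kif5a, a kinesin heavy chain gene mainly of neurons, had 52.8% and 54.0% in B cells and 23.9% and 17.4% in T cells. Its segments did not move together, since CpGs from base 401 to 600 were higher in B cells by 57.6 points and the last 200 bases were lower by 12.4 points. An intronic tile of the long non-coding RNA gene Gm39323 had 84.5% and 87.6% against 56.8% and 60.9%. The tile nearest to Gm45079 had 66.8% and 62.7% in B cells and 35.6% and 45.3% in T cells, and its mean difference of 24.2 points fell to 19.4 without the female T cell file.

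Among the 13 tiles lower in B cells, the coding exon of Tmem151b held the most CpGs. It held 111 CpGs with 4.26% and 3.15% in B cells but 50.5% and 51.2% in T cells (chr17:45545001-45546000), with 2018 to 2477 reads per file. B cells were lower by 46.3 points in females and 48.0 in males, and 90.99% of its CpGs differed by 20 points or more. The tile began 1989 bp from a RefSeq start. Rai1, a transcriptional regulator, had 53.6% and 48.9% in B cells and 91.9% and 95.2% in T cells in its large coding exon (adjusted p = 1.7e-134). Its difference ranged from −12.4 points in the first 200 bases to −85.8 in the last 200.

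The Bcl11b tile belonged to a gene needed for T cell development. It lay in an intron (chr12:107980001-107981000) and had 5.72% and 4.44% in B cells and 42.1% and 36.7% in T cells (adjusted p = 5.5e-139). From base 401 to 600, where 23 CpGs lay, the levels were 2.8% and 1.9% in B cells and 52.3% and 50.9% in T cells. A RefSeq start lay 118 bp away. The level in T cells was thus close to the middle of the range, and the 2 tiles of the last coding exon of the same gene were over 95% in all 4 files.

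Other coding exons lower in B cells were those of Mon1a, a gene of vesicle traffic, with 36.1% and 39.7% in B cells against 67.8% and 65.3%, and of Evpl, a protein of cell junctions, with 46.8% and 34.2% against 70.5% and 76.5%. Klf13, a transcription factor gene, had 65.5% and 77.1% against 94.96% and 95.2%, and its difference of −23.8 points became −18.0 without the female B cell file. Spen had 43.3% and 35.4% against 66.2% and 64.7%. In Spen the first 200 bases read 95.2% to 97.5% in all files, and from base 601 to 800 the levels were 1.9% and 5.9% in B cells and 34.7% and 26.7% in T cells, so the tile spanned an edge. An exon of the non-coding gene 2810410L24Rik had 53.0% and 67.7% in B cells but 94.7% and 91.8% in T cells. A RefSeq start lay 907 bp away. Female minus male was −14.8 points in its B cells, the largest gap between the sexes within B cells among the 19 tiles.

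The remaining tiles lower in B cells were intronic or intergenic, and in some of them only part of the tile differed. Coro2a, a coronin gene, had 63.4% and 65.7% in B cells and 87.1% and 87.8% in T cells. Nfix, a nuclear factor I gene, had 27.2% and 29.8% against 56.3% and 50.9%. The tile nearest to Socs3, an inhibitor of cytokine signaling, had 23.8% and 17.9% against 44.8% and 51.1% and lay 19186 bp from a start. The tile nearest to Gm13404 held a RefSeq start and had 65.4% and 70.5% against 89.1% and 91.1%, a difference of −22.1 points that became −19.5 without the female B cell file. Ephb2, an ephrin receptor gene, had the smallest difference, with 34.6% and 24.2% against 51.1% and 49.4%. Its difference of −20.8 points became −19.95 without the female T cell file and −15.7 without the male B cell file, both under the threshold. B cells were lower by 20 points or more at 50 of 71 CpGs in Nfix, 32 of 54 near Socs3 and 24 of 42 in Ephb2. In Coro2a this held for 14 of 40 CpGs and near Gm13404 for 11 of 40. In none of the 13 did the B and T files overlap, but the 20 points that a call requires make this likely in advance, so it adds no support.

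**Figure D5:**
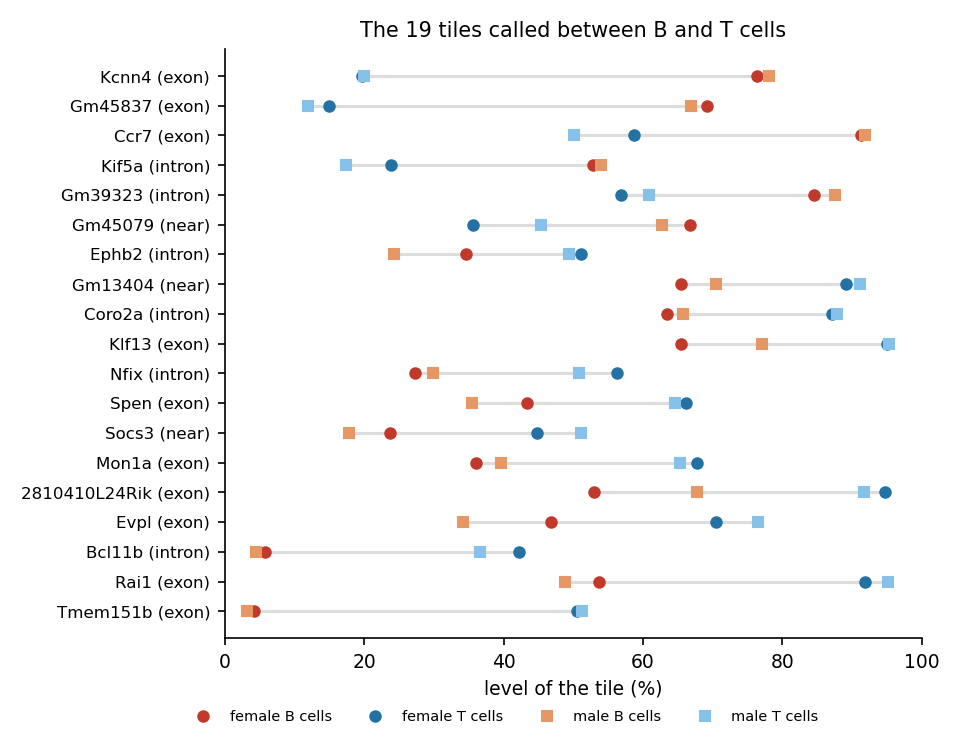
Level of the tile (x axis, percent) in each of the 4 files for the 19 tiles called between B and T cells, ordered from the largest positive to the largest negative difference. Circles are females and squares males; Kcnn4 at 76.3% and 78.1% in B cells against 19.7% and 19.9% and Tmem151b at 4.26% and 3.15% against 50.5% and 51.2% mark the ends.

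The sexes were called different at 1 tile. An intronic tile of Cep85, a centrosomal protein gene, had 58.2% (B) and 50.2% (T) in females but 22.9% (B) and 27.5% (T) in males (chr4:134160001-134161000). Females were higher by 35.3 points in B cells and 22.6 in T cells (adjusted p = 6.2e-35, quasi-binomial model), by counts of 529 to 1162 reads. Limma and the fit with the prior from all windows called 0 autosomal windows between the sexes, this tile included, and with a minimum of 10 reads per CpG it kept 22 of its 44 CpGs and left the set. It lay in partly repeated sequence, with 32.6% soft-masked bases and 51.03% of its 31-base words shared with 7 other tiles away from starts, and how far shared sequence moved its levels was not tested. The call share was 0.0476% of the 2100 tiles against 0.00103% of all autosomal tiles, which for 1 tile is a single count. Without the size threshold 22 tiles (1.05%) had an adjusted p under 0.05, against 0.0226% of autosomal tiles and 0.911% of CpG-dense tiles near starts. Over all autosomal tiles the median was 7 CpGs, against 47 in the 2100 tiles, and 15.5 reads per CpG, against 17.6. The samples were pools of animals, so a difference between sexes and a difference between pools cannot be told apart.

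By an interaction term, the B minus T difference itself differed between the sexes in 20 tiles (0.952%). The share was 0.0126% of all windows, which held fewer CpGs and thus fewer reads, and 0.511% of CpG-dense tiles near starts. The clearest was a coding exon of Lrfn1, with 33.1% (B) and 28.8% (T) in females but 22.2% (B) and 39.3% (T) in males (adjusted p = 4.2e-09, difference of differences 21.5 points). Nol3 had 43.0% and 23.9% in females and 33.2% and 39.4% in males. Of the 20 tiles 17 were in neither the low nor the high class. Since each group had 1 file, the interaction is also the residual of the model, and sex-specific change and variation between pools cannot be told apart.

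The deepest tiles stood apart from the rest. A tile in an intron of Cmss1 had 724 reads per CpG, against a median of 17.6, and levels of 27.9%, 27.2%, 24.8% and 22.2%. The tile nearest to Gm2651 had 411 reads per CpG at 26.2% to 30.3%, and an intronic tile of Gm49692 had 80.9 at 73.2% to 77.6%. Both of the first lay in the sparse middle of the distribution, and whether reads of other copies of this sequence entered was not tested.

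CpG-dense sequence away from starts was measured less fully than that near starts. Of 4971 such tiles by the reference, 2100 (42.2%) held 40 CpGs with enough reads, against 93.6% of 17343 near starts. The 2871 tiles that did not pass were mostly repeats, with a median of 99.3% soft-masked bases against 9% in those that passed. Where 3 or more of their CpGs were read, in 2432 tiles, the mean was 88.7% and 91.9% were over 80%. The counts of high tiles and the levels by place above therefore cover the readable part of this sequence. Tiles that did not pass were not split by place. Whether exons would still stand above introns and intergenic tiles with them included was not tested.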

How the data were processed

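Whole-genome bisulfite data of 8 samples in 4 groups were used as 1 deposited file per group. Whether a file merges both samples of its group is not given in the sources used here. Each file lists, per CpG, a methylation level as a fraction and the read counts that the authors deposited behind it, on mm10, with 5 or more reads per entry. The submitters' processing notes name Trim Galore, FastQC and Bismark 0.13.1, without their roles. Methylated reads were recovered as level times reads, rounded to whole numbers, and these gave back the deposited 3-decimal level within 0.001 for 100% of entries (at very deep CpGs this holds for any value). All joined entries lay on a CpG of GRCm38, and positions, annotation and sequence were taken from GENCODE M21 and RefSeq.

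CpGs with 5 or more reads in all 4 files (18216084 on autosomes) were pooled in 1 kb windows. A tile belonged to the place of most of its CpGs (exon, then intron, then intergenic) and was named by the gene it overlaps or else by the nearest start. All 2018320 windows with 3 or more CpGs entered a quasi-binomial logistic regression on cell type and sex (Python 3.11.15, scipy 1.17.1). Its dispersion (1.31) was shared over windows by limma 3.58.1, with the prior from windows with 5 or more expected reads of each kind in every file. P-values were adjusted by Benjamini-Hochberg over all windows, for sex over autosomes apart. The interaction term was tested against the same dispersion, a test added after seeing the data. Level differences between places were tested over files by exact permutation.

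The members and lists were chosen with earlier results of these data known. Named tiles were the 12 highest and 12 lowest called in B cells by the smaller difference of the sexes (the last of the 13 lower ones, Ephb2, lies outside this rule), those called between the sexes, the 3 lowest and 3 densest of each place, the 5 longest runs, the 3 deepest and up to 4 per gene list. Sox14, Lrfn1 and Nol3 were named after their values were seen. Alternatives were other models, thresholds, coverage, CpG and distance limits, bounds and place rules, and each file left out. One B cell marker of the fixed list is not reported here, for a reason unrelated to its values.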

Additional observations from a re-analysis of the deposited data

Results flagged for a closer look

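Of the tiles named above, 5 had a B minus T difference that differed between females and males by the interaction term of the quasi-binomial model, adjusted over all windows. For the Lrfn1 and Nol3 tiles, whose levels are given with the interaction above, the difference of differences was 21.5 points (adjusted p = 4.2e-09) and 25.3 points (adjusted p = 0.00028). In the Dact3 tile the difference was 13.1 points in females and −1.46 in males, so the difference of differences was 14.5 points (adjusted p = 9.3e-05), from levels of 38.8% (B) and 25.7% (T) in females and 30.1% (B) and 31.6% (T) in males. In the Evpl tile B cells were lower in both sexes, by −23.7 and −42.4 points, which differed by 18.7 points (adjusted p = 0.00052). In the 2810410L24Rik tile the differences were −41.8 and −24.0 points, a difference of −17.7 points (adjusted p = 0.027). Each group had 1 file, so variation between pools of animals and a difference between the sexes cannot be told apart. No group had enough files to screen for a file far from the others.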

How the results depend on the processing

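No paired analysis was possible because the samples of different groups share no replicate number and each group has 1 file. Exons stood above introns and introns above intergenic tiles in all 11 settings tried for the level by place, each over measured tiles only. The means in exons, introns and intergenic tiles moved to 50.6%, 22.2% and 14.5% with 10 reads per CpG, to 74.3%, 72.3% and 65.8% with 30 CpGs, to 40.9%, 27.7% and 25.1% with 50 CpGs, to 62.9%, 53.9% and 48.3% beyond 5 kb, to 55.2%, 41.9% and 41.0% with the distance from the tile centre and to 54.7%, 44.3% and 42.6% with any exonic base as exon. In alternatives chosen after seeing the data, they moved to 59.2%, 50.3% and 48.4% beyond 2 kb of RefSeq starts, and without tiles at least 50% soft-masked to 28.1% in introns and 14.6% between genes. The shares of low and high tiles became 59.1% and 25.8% with 10 reads, 19.9% and 63.8% with 30 CpGs, 61.7% and 24.8% with 50, 37.8% and 47.5% beyond 5 kb, 39.2% and 46.5% away from RefSeq starts, 55.2% and 27.6% without tiles at least 50% soft-masked, and 32.5% and 36.4% with bounds of 10% and 90%.

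For B against T, the share of all windows called is given for the main setting only. Except where no window passed, the counts that follow thus have no such share beside them. The calls between B and T cells (19, of which 6 higher and 13 lower) became 8 (3 and 5) with limma. They became 0 (0 and 0) with the prior from all windows, a fit in which no window passed for cell type. They became 10 (1 and 9) of 998 tiles with 10 reads, 94 (49 and 45) of 8019 with 30 CpGs and 10 (3 and 7) of 831 with 50. Thresholds of 10 and 30 points gave 54 (23 and 31) and 9 (4 and 5). With 10 reads, 15 of the 19 tiles kept 30 or more CpGs, and each of the 15 still passed. The 998 tiles had to keep 40 or more, so these counts cover different tiles. Leaving out each file gave 18 to 22 calls (6 to 8 higher, 12 to 14 lower). Between the sexes the 1 call became 0 with limma (31 tiles at an unadjusted p under 0.05, against 316 in the quasi-binomial model), with the prior from all windows (192 tiles), both of which called no autosomal window, with 10 reads, with 50 CpGs and beyond 5 kb, 2 with 30 CpGs and 4 at 10 points. The B minus T mean of introns (−0.13 points) turned to 0.021 with 30 CpGs, 0.12 beyond 5 kb and 0.063 away from RefSeq starts. Over the files left out it ranged from −0.38 to 0.13, with 0.003 without the female T cell file and 0.13 without the male B cell file. In exons that range was −0.70 to −0.07 and between genes −0.45 to −0.01. The causes were not tested, beyond the different tiles each limit admits. Depth limits the tiles themselves, since most repeats had too few CpGs with reads.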
